A study of Mus musculus with 6 samples.

Results

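The microRNAs miR-132 and miR-212 are cut from a pair of neighbouring hairpins, and each hairpin gives a mature product from its 5′ arm (5p) and from its 3′ arm (3p). They were followed here in small RNA of the sensorimotor cortex after spinal cord injury. Their reads were all reads of 18 to 26 nt that lay, in the sense direction and without a mismatch, in the hairpins Mir132 or Mir212 of GENCODE release M21, and each read was given to the arm that held its midpoint. This gave 4 arms with 149 distinct reads and 2326117 reads in all, among 1421 miRNA arms with at least 1 read, of which 690 had enough reads to be tested. No read of the 4 arms matched another hairpin or another annotated gene, so none was shared with a paralogue.

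The tissue came from male C57BL/6J mice at postnatal day 90, and the libraries fell into 2 groups of 3. In the SCI group the cervical spinal cord had been cut completely, and in the control group the cord had been laid bare at the same kind of operation and left intact, so that both groups had anaesthesia and surgery. The cortex was taken from single animals 7 days later, and the injury itself lay outside the tissue sequenced. The p-values measure the spread between these libraries. The SCI libraries held 14628518, 23408028 and 19918863 reads, against 22937179, 10585062 and 24480988 reads in the control libraries. Exact miRNA matches made up 72.9 to 78.2% of reads in SCI and 78.1 to 78.9% in controls. The brain miRNAs miR-124-3p, miR-128-3p and miR-9-5p were abundant in all libraries, with miR-124-3p, the lowest of them, between 9675 and 17530 CPM (read counts brought to a common library size by the trimmed mean of M-values, TMM). The first principal component of all arms (38.6% of variance) separated the groups, with -4.08, -2.36 and -5.39 in SCI libraries and 8.63, 2.15 and 1.05 in control libraries. The first control library stood apart from the other 5 on it, and several of the values that rest on that library are also given without it. Each library held at least 194336 reads of miR-132-3p, 25379 of miR-132-5p, 13798 of miR-212-3p and 2754 of miR-212-5p, so counting error is small beside the spread between libraries.

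Transcription of the miR-132/212 locus in neurons is switched on by the activity-regulated factor CREB, downstream of synaptic activity and of neurotrophins such as BDNF. The 3p products are the main guide strands and carry the same seed, the bases by which a miRNA pairs with its target messages. miR-132 is known for promoting the growth and branching of dendrites, among others by repressing p250GAP (Arhgap32), a brake on Rac signalling. Because the locus is read as 1 primary transcript, the level of each mature arm also depends on how the hairpins are cut and how long the products last.

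The sequences below show what the 4 arms share and where they differ, with the seed (bases 2 to 8) in capitals. The mature sequences and their positions are those of RefSeq on mouse build GRCm38, and the fifth line is the most abundant miR-132-5p read in the libraries.
miR-132-3p: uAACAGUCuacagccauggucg
miR-212-3p: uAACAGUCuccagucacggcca
miR-132-5p: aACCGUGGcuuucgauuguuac
miR-212-5p: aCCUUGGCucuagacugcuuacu
miR-132-5p, most abundant read: aCCGUGGCuuucgauuguuacu
The 3p products had the seed AACAGUC in common and were identical at 17 of 22 positions, whereas the RefSeq 5p sequences were identical at 9 of 22 positions and had different seeds. The most abundant reads of miR-132-3p, miR-212-3p and miR-212-5p were the RefSeq sequences. That of miR-132-5p began 1 base later and ended 1 base later than the RefSeq entry, which made its seed CCGUGGC in place of ACCGUGG. Aligned from their first bases, the most abundant 5p reads were identical at 14 of 22 positions.

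Both hairpins lie on the plus strand of mouse chromosome 11 (GRCm38), Mir212 at chr11:75173388-75173478 (ENSMUSG00000065590.1) and Mir132 at chr11:75173682-75173747 (ENSMUSG00000065537.2), with 203 bases between them. Both are within intron 1 of the noncoding gene 1700016P03Rik (ENSMUSG00000085609.1, chr11:75172560-75177633). The hairpins are printed here with both RefSeq arms in capitals, to show where reads were sought.
Mir212: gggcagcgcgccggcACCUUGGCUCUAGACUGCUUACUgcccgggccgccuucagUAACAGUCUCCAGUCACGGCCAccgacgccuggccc
Mir132: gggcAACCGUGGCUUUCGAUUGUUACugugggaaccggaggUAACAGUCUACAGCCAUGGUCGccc
Reads from the spliced host transcript outside the hairpins numbered 13 over all libraries, and reads of 27 to 34 nt within the hairpins numbered 14. The libraries therefore gave no usable measure of the host transcript or of longer hairpin products.

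The arms of miR-132 were lower in SCI cortex and those of miR-212 were not separated between the groups, but no arm passed the test over all arms. miR-132-3p, the most abundant of the 4 and the fourteenth most abundant of all 690 arms, was present at 19585, 19324 and 15138 CPM in SCI libraries, against 25875, 24187 and 23264 CPM in control libraries. Every SCI library lay below every control library. The log2 fold change was -0.44 ± 0.13 (SE), a ratio of 0.737, with an adjusted p of 0.256 in edgeR's quasi-likelihood test with Benjamini-Hochberg adjustment over 690 arms. The unadjusted p was 0.0067. In that test 0% of arms passed (0 of 690), while 97 arms (14.1%) had an unadjusted p below 0.05, and DESeq2 passed 12 arms (1.74%) and limma-voom 0. miR-132-3p was not among those passed by DESeq2 (adjusted p = 0.208). Arms whose SCI values all lay below the control values made up 11.2% of the 690, and those with the opposite separation 9.13%. In a bulk sample, fewer cells that make a miRNA and less of it per cell cannot be told apart.

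**Figure D1:**
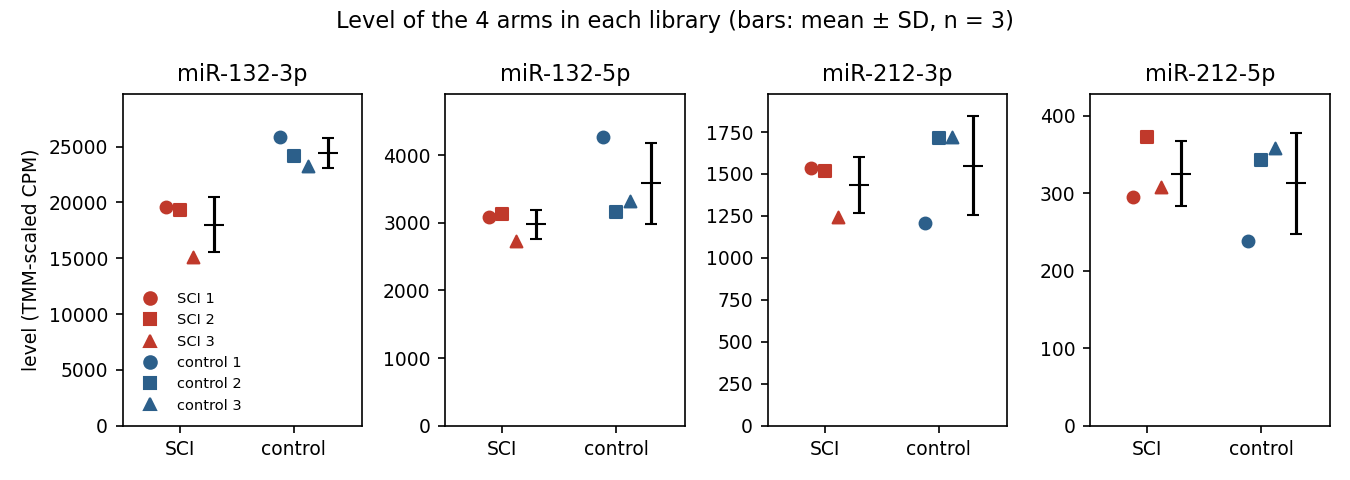
Level of each arm (y axis, TMM-scaled CPM, starting at 0) in the 3 SCI libraries (red, left) and the 3 control libraries (blue, right), with the mean ± SD beside the points. The SCI libraries of miR-132-3p lie between 15138 and 19585 CPM, all below the controls, whereas the first control library is the lowest of all 6 for both miR-212 arms.

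miR-132-5p, the partner strand from the same hairpin, followed in the same direction with a smaller separation. It was present at 3081, 3124 and 2724 CPM in SCI libraries, against 4272, 3159 and 3318 CPM in control libraries. The groups did not overlap, but the highest SCI and the lowest control value were nearly equal. As a share of all reads the groups did overlap, at 0.245, 0.236 and 0.214% in SCI and 0.310, 0.240 and 0.259% in controls. The log2 fold change was -0.27 ± 0.14 (edgeR adjusted p = 0.455), and -0.12 without the first control library.

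miR-212-3p, which carries the same seed as miR-132-3p, was present at 1538, 1519 and 1245 CPM in SCI libraries, against 1210, 1717 and 1721 CPM in control libraries. The groups overlapped because the first control library was the lowest of the 6, while the other controls were above all SCI libraries. The log2 fold change was -0.11 ± 0.17 (edgeR adjusted p = 0.783), and -0.26 without that library (adjusted p = 0.368). miR-212-5p, the least abundant arm, was present at 295, 373 and 308 CPM in SCI libraries, against 238, 343 and 358 CPM in control libraries. Its log2 fold change was 0.06 ± 0.18 (edgeR adjusted p = 0.909), and without the first control library it was -0.11.

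**Figure D2:**
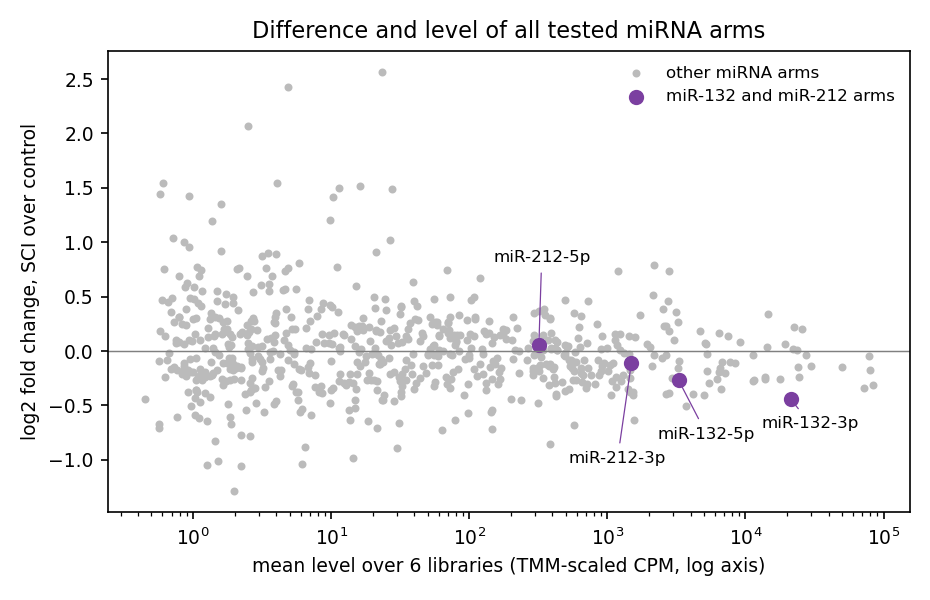
Log2 fold change of SCI over control (y axis) against the mean level over all 6 libraries (x axis, TMM-scaled CPM, log axis) for the 690 tested miRNA arms (grey) and the 4 arms of miR-132 and miR-212 (purple). The 4 arms lie between -0.44 and 0.06, and miR-132-3p is the lowest of them and the most abundant.

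The balance between the hairpins was compared as a ratio within each library, which needs no scaling between libraries. miR-212-3p made up 7.28, 7.29 and 7.60% of the summed 3p reads of both hairpins in SCI libraries, against 4.47, 6.63 and 6.89% in control libraries. All SCI values lay above all control values. How many other pairs of hairpins show such a separation was not counted, so it cannot be called particular to this pair. On the log2 scale the ratio of miR-212-3p to miR-132-3p was higher by 0.35 in SCI (two-sided exact permutation test, p = 0.1, the smallest that 3 libraries against 3 allow; adjusted p = 0.15 over 3 ratios), and by 0.14 without the first control library. For the 5p arms the share of miR-212 was 8.75, 10.7 and 10.1% in SCI, against 5.28, 9.79 and 9.74% in controls, and the groups overlapped (log2 difference 0.33, exact permutation p = 0.5). Without the first control library the 5p difference was 0.01.

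All miRNA reads with the seed AACAGUC came from miR-132-3p and miR-212-3p. Their sum was 20151, 19955 and 15657 CPM in SCI libraries, against 25728, 24641 and 23794 CPM in control libraries. The pooled seed level was thus lower in every SCI library than in every control library, by 0.42 on the log2 scale (exact permutation p = 0.1). miR-212-3p gave 7.34, 7.34 and 7.64% of those reads in SCI and 4.50, 6.70 and 6.95% in controls, so the seed pool was mostly miR-132-3p in both groups. The separation of the pool therefore largely repeats that of miR-132-3p. Separated pools were not counted for other seeds.

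Within each hairpin the 3p product outweighed the 5p product. Mir132 gave 6.36, 6.19 and 5.56 reads of 3p for each read of 5p in SCI libraries, against 6.06, 7.66 and 7.01 in control libraries. Mir212 gave 5.21, 4.07 and 4.05 in SCI, against 5.08, 5.01 and 4.81 in controls. In both cases the groups overlapped. The log2 ratio differed by -0.19 ± 0.18 for Mir132 (limma adjusted p = 0.655) and by -0.17 ± 0.18 for Mir212 (limma adjusted p = 0.673), in a fit over 278 hairpins in which 0% passed and 30 (10.8%) had an unadjusted p below 0.05.

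**Figure D3:**
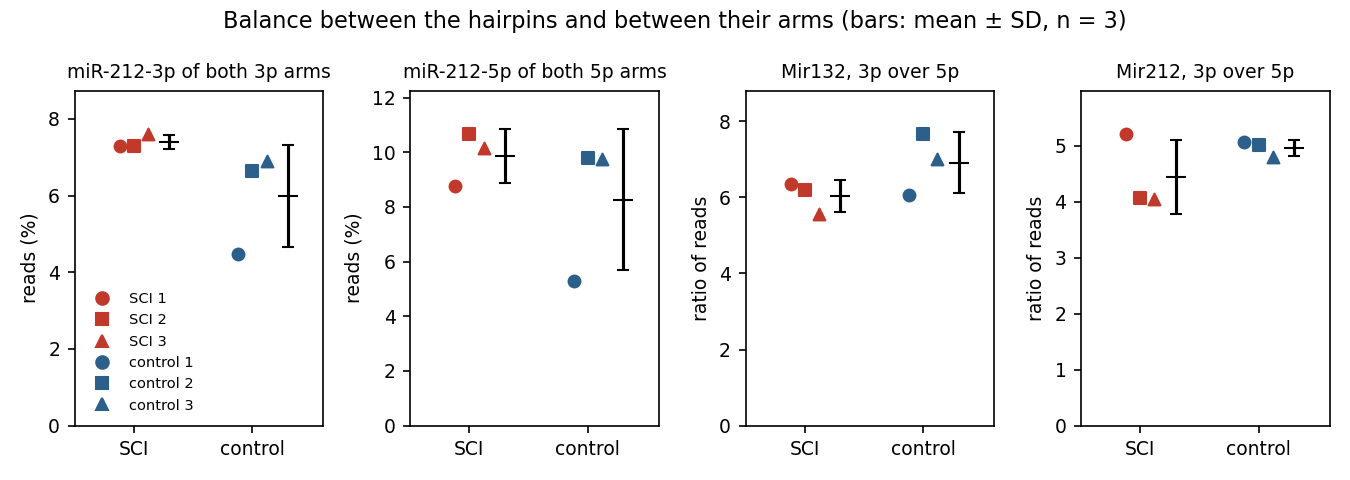
Share of miR-212 in the reads of both hairpins (left pair of panels, %) and reads of the 3p arm for each read of the 5p arm (right pair of panels), in SCI (red, left) and control (blue, right) libraries, with the mean ± SD. The share of miR-212-3p is 7.28 to 7.60% in SCI, above all controls, of which the first is at 4.47%.

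The ends of the reads were then compared, since the 5′ end sets the seed and the 3′ end depends on both cutting and trimming. miR-132-3p had a sharp 5′ start and a fairly sharp 3′ end, which lay at the RefSeq end in 77.7, 78.2 and 76.5% of its reads in SCI libraries, against 87.8, 80.0 and 78.8% in control libraries. The share was lower in SCI by 4.79 percentage points (two-sided exact permutation test, p = 0.1; adjusted p = 0.3 over 12 end values of the 4 arms), and by 1.98 points without the first control library, which alone was near 88%. Among 441 arms with at least 100 reads on average, 14.3% had a main 3′ end share that was lower in all SCI libraries and 7.26% one that was higher. Reads of miR-132-3p that stopped short of the RefSeq end made up 21.9, 21.4 and 23.1% in SCI and 11.9, 19.6 and 20.8% in controls. The mean length was 21.66, 21.67 and 21.64 nt in SCI and 21.79, 21.68 and 21.67 nt in controls, a separation seen in the same direction in 9.3% of arms and in the other in 3.63%. Its main 5′ start was used by 95.33, 95.69 and 95.53% of reads in SCI and 94.95, 95.05 and 95.17% in controls, and a higher start share in all SCI libraries was found in 29.3% of arms, a lower one in 4.99%.

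miR-212-3p was far more ragged. Its reads ended at the RefSeq end in 35.02, 37.38 and 32.26% of cases in SCI and 33.77, 33.92 and 32.68% in controls. They ended 1 base earlier in 29.3, 29.1 and 32.5% in SCI and 36.0, 31.3 and 31.0% in controls, and 2 bases earlier in 19.30, 17.98 and 20.16% in SCI and 14.91, 18.64 and 19.75% in controls. Both groups therefore held a mixture of ends, with overlapping shares. miR-132-5p began at its main start, 1 base inside the RefSeq entry, in 82.3, 82.0 and 83.0% of reads in SCI and 83.4, 81.5 and 81.9% in controls, and at the RefSeq start in 16.99, 17.25 and 16.28% in SCI and 15.52, 17.53 and 17.20% in controls. The use of its 2 seeds thus overlapped between the groups. miR-212-5p had a main 3′ end share of 77.5, 78.6 and 79.3% in SCI and 80.0, 77.1 and 77.1% in controls, with overlap. Its main 5′ start share was higher in every SCI library, at 95.31, 95.02 and 95.02%, against 94.78, 94.99 and 94.24% in controls (exact permutation p = 0.1; adjusted p = 0.3), the direction found in 29.3% of arms.

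When each distinct read was tested on its own, 5 of the 96 tested reads of the 4 arms passed, all of them lower in SCI and all shortened at the 5′ end. Over all miRNA reads 148 of 8373 passed (1.77%; edgeR, adjusted p below 0.05). These 5 reads are rare and were singled out after their values were seen. They are printed here below the 2 most abundant miR-132-3p reads, with bases 2 to 8 of each read in capitals, to show how the missing bases move the seed.
miR-132-3p, RefSeq form: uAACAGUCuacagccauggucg
miR-132-3p, 1 base shorter at the 3′ end: uAACAGUCuacagccaugguc
miR-132-3p, 2 bases shorter at the 5′ end: aCAGUCUAcagccauggucg
miR-132-3p, 2 shorter at the 5′ and 1 at the 3′ end: aCAGUCUAcagccaugguc
miR-132-3p, 3 bases shorter at the 5′ end: cAGUCUACagccauggucg
miR-132-5p, starting 4 bases after the RefSeq start: gUGGCUUUcgauuguuac
miR-132-5p, starting 5 bases after the RefSeq start: uGGCUUUCgauuguuacu
The most abundant of the 5, miR-132-3p without its first 2 bases, was present at 51.31, 39.05 and 33.86 CPM in SCI libraries, against 135.83, 99.97 and 85.24 CPM in control libraries. All SCI libraries were well below all controls. The log2 fold change was -1.37 ± 0.23 (edgeR adjusted p = 0.0058 over 8373 reads), and the adjusted p was 0.137 without the third SCI library and between 0.0029 and 0.0452 when any other library was left out.

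The other reads that passed, 4 in number, were rarer. The read shorter at both ends had a log2 fold change of -0.96 ± 0.21 (edgeR adjusted p = 0.0325), and the read without its first 3 bases one of -1.18 ± 0.28 (edgeR adjusted p = 0.0437). The miR-132-5p reads starting 4 and 5 bases late had log2 fold changes of -2.35 ± 0.51 (edgeR adjusted p = 0.0285) and -2.17 ± 0.51 (edgeR adjusted p = 0.0437), on 57 and 87 reads in all. Fewer of the 5 passed with a library left out: 1 without the first SCI library, 1 without the second SCI library, 0 without the third SCI library, 2 without the first or the second control library, and 1 without the third control library, although all 5 had negative fold changes each time. DESeq2 passed all 5.

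The RefSeq form of miR-132-3p, which held 76.7% of the arm's reads, was present at 14319, 14938 and 11764 CPM in SCI libraries, against 21664, 17436 and 16962 CPM in control libraries. It was lower in all SCI libraries, but did not pass (log2 fold change -0.45 ± 0.15, edgeR adjusted p = 0.202). The read 1 base shorter at the 3′ end was present at 2854, 2893 and 2531 CPM in SCI, against 2177, 3056 and 3201 CPM in controls, and overlapped between the groups (-0.03 ± 0.17). The read 2 bases shorter at the 3′ end likewise overlapped (0.05 ± 0.20). Over the 96 tested reads, 66 had negative and 30 positive fold changes, a split not counted over all reads. Lower and higher reads numbered 17 and 8 for miR-132-3p and 24 and 2 for miR-132-5p. For miR-212-3p they numbered 16 and 11, and for miR-212-5p 9 and 9. An unadjusted edgeR p below 0.05 was found for 16 lower and 0 higher reads, beside 7.39% lower and 5.37% higher of all 8373 reads. The 16 were 7 of miR-132-3p, 6 of miR-132-5p, 3 of miR-212-3p and 0 of miR-212-5p. Reads of the same arm largely share their bases and come from the same libraries, so they are not independent observations. Reads whose groups did not overlap numbered 18 lower and 3 higher in SCI, beside 10.1% lower and 9.06% higher of all reads. The most abundant reads of the other arms all had an edgeR adjusted p of at least 0.551.

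Late 5′ starts were fewer in SCI for all 4 arms and also across other miRNAs. Reads that began 2 or more bases after the main start made up 0.485, 0.408 and 0.422% of miR-132-3p in SCI libraries, against 0.781, 0.734 and 0.625% in control libraries. For miR-132-5p they made up 0.0922, 0.105 and 0.113% in SCI and 0.296, 0.240 and 0.190% in controls. For miR-212-3p they made up 0.0839, 0.0969 and 0.0875% in SCI and 0.174, 0.159 and 0.137% in controls, and for miR-212-5p 0.408, 0.425 and 0.458% in SCI and 0.782, 0.617 and 0.746% in controls. In each arm every SCI library was below every control library. The same separation was seen in 26.1% of the 441 arms and the opposite one in 2.04%, and the median over these arms was 0.171, 0.202 and 0.162% in SCI and 0.304, 0.255 and 0.271% in controls. This measure was chosen after the 5 reads had been seen and was not tested. The part in it of RNA quality or library making was not tested.

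**Figure D4:**
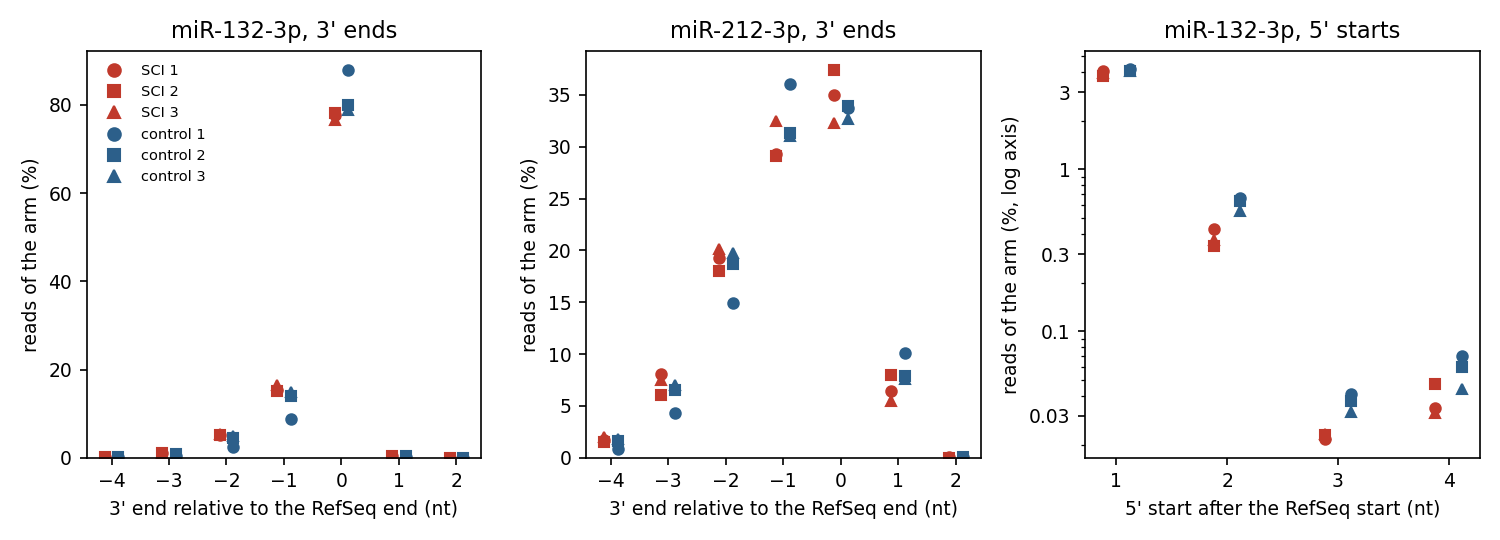
Positions of read ends as a share of each arm's reads (y axes, %), for 3′ ends of miR-132-3p and miR-212-3p relative to the RefSeq end, and for late 5′ starts of miR-132-3p on a log axis; red points left of each position are SCI libraries and blue points right of it are controls. The first control library has 87.8% of miR-132-3p reads at the RefSeq end, and at 2 and 3 bases after the start all SCI libraries lie below all controls.

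Reads with bases at the 3′ end that the hairpin does not encode can record additions made after cutting, most often of A or U. Sequencing errors or adapter remains in the last bases would be counted with them, and their part was not tested. Such reads, left out of the levels above, were frequent on the 3p arms. Reads with 1 to 3 added bases made up 19.6, 19.0 and 19.8% of miR-132-3p in SCI libraries, against 18.4, 17.5 and 17.7% in control libraries. The groups did not overlap for miR-132-3p (exact permutation p = 0.1; adjusted p = 0.4), a separation seen in 15.9% of arms, with 3.63% in the other direction. For miR-212-3p they made up 32.5, 30.5 and 31.8% in SCI and 34.1, 29.3 and 28.7% in controls. On the 5p arms they stayed below 5% in every library. Of 441 arms, 51 had a larger share than miR-212-3p and 135 a larger share than miR-132-3p, whereas 429 exceeded miR-132-5p. The most abundant such reads of the 3p arms are printed with the added base in capitals.
miR-132-3p with U: uaacagucuacagccauggucgU
miR-132-3p with A: uaacagucuacagccauggucgA
miR-212-3p with U: uaacagucuccagucacggccaU
miR-212-3p, 1 base longer, with U: uaacagucuccagucacggccacU
An added base that equals the next base of the hairpin counts as encoded and is missed here, as for an A after a miR-212-3p read that stops 1 base short.

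On miR-132-3p, added A separated the groups and added U did not. Reads with A alone made up 7.12, 6.87 and 7.08% of the arm in SCI libraries, against 5.24, 6.01 and 6.04% in control libraries. All SCI values lay above all control values (difference 1.26 percentage points; two-sided exact permutation test, p = 0.1; adjusted p = 0.4 over 12 values), also without the first control library (1.002 points). A higher share of A additions in all SCI libraries was seen in 18.8% of arms, and the median over the 441 arms was 4.80, 4.14 and 4.32% in SCI and 3.91, 3.97 and 3.94% in controls. Added U on miR-132-3p made up 11.36, 11.001 and 11.64% in SCI and 12.19, 10.57 and 10.74% in controls, and overlapped. Shares of added U that did not overlap were lower in SCI in 5.9% of arms and higher in 6.35%. Looking only at reads whose matched part reached the RefSeq end, a single A followed in 6.01, 5.77 and 5.88% in SCI and 4.38, 5.19 and 5.37% in controls, without overlap. Reads ending 2 bases earlier also did not overlap (10.6, 11.3 and 12.3% in SCI, against 10.2, 9.66 and 9.85% in controls), whereas those ending 1 base earlier did (8.60, 8.04 and 8.41% in SCI, against 8.22, 7.18 and 6.16% in controls), as did the rarer ends 3 and 4 bases earlier and 1 base later. The share of all arms with such a separation was not counted for single ends, so these values cannot be called particular to miR-132-3p.

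For miR-212-3p, A alone was found on 10.54, 10.37 and 9.47% of reads in SCI and 10.01, 9.16 and 9.52% in controls, and U alone on 16.6, 14.8 and 17.5% in SCI and 18.4, 15.3 and 14.6% in controls, both overlapping. For miR-212-5p the share with A alone was lower in SCI, at 0.841, 0.822 and 0.823% in SCI and 1.211, 1.056 and 1.003% in controls (exact permutation p = 0.1; adjusted p = 0.4), a separation seen in 2.04% of arms and resting on few reads. Counting reads with added bases together with the exact ones gave miR-132-3p a log2 fold change of -0.41 ± 0.13 (edgeR adjusted p = 0.24), an alternative chosen after seeing the data.

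**Figure D5:**
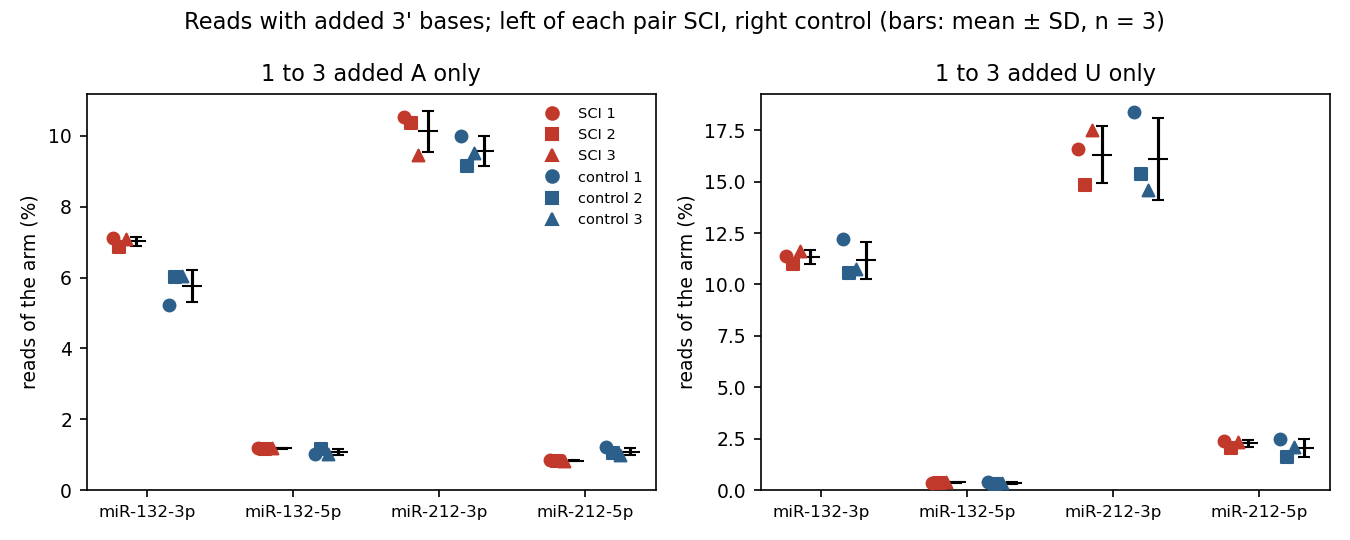
Share of each arm's reads with 1 to 3 added A (left panel) or U (right panel) at the 3′ end (y axes, %, starting at 0), with SCI libraries in red left of the control libraries in blue and the mean ± SD. Added A on miR-132-3p is 6.87 to 7.12% in SCI, above all controls, and added U overlaps.

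Other miRNAs described as regulated by neuronal activity or as acting at synapses lay on both sides of no difference. Of 24 such arms, the 4 above included, all were tested: 11 were lower and 13 higher in SCI, 3 lower and 2 higher had an unadjusted edgeR p below 0.05 (5.94 and 8.12% of all 690 arms), and 0 passed the adjustment. Their median log2 fold change was 0.05, beside -0.02 over all arms. The 4 with the smallest p outside the 2 hairpins were miR-9-5p, miR-335-5p, miR-219a-5p and miR-184-3p. miR-9-5p, a miRNA of neural progenitors and neurons, was present at 65618, 63649 and 60996 CPM in SCI, against 85368, 82460 and 72692 CPM in controls, without overlap (-0.34 ± 0.10, edgeR adjusted p = 0.256). miR-335-5p had 3700, 3544 and 3385 CPM in SCI, against 2705, 2423 and 3149 CPM in controls without overlap (0.36 ± 0.13, edgeR adjusted p = 0.279). miR-219a-5p, abundant in oligodendrocytes, overlapped, with 277, 306 and 240 CPM in SCI, against 759, 279 and 444 CPM in controls, and miR-184-3p overlapped at 47.6, 40.3 and 49.8 CPM in SCI, against 29.5, 30.2 and 40.3 CPM in controls.

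Summed marker miRNAs of several cell types were lower in the same libraries as miR-132-3p. The summed level of 5 neuronal miRNAs was 178113, 172813 and 165713 CPM in SCI libraries, against 210339, 190579 and 187517 CPM in controls, with 4 of 5 members lower and miR-124-3p higher on average. The difference of -23932 CPM became -16835 CPM without the first control library. Most of this sum was miR-128-3p and miR-9-5p, which did not overlap between the groups, whereas miR-124-3p, miR-138-5p and miR-218-5p overlapped. The sum of 3 oligodendrocyte miRNAs was 5637 to 6418 CPM in SCI and 6442 to 8762 CPM in controls, with all 3 lower on average. The groups overlapped for each single member, and most of the sum was miR-338-3p (4918 CPM on average in SCI and 6033 CPM in controls). The 4 choroid plexus and ependymal miRNAs listed were miR-200a-3p, miR-200b-3p, miR-429-3p and miR-141-3p, all lower on average. Their sum was 57.8, 52.3 and 47.5 CPM in SCI and 117.7, 66.7 and 64.2 CPM in controls. The difference of -30.3 CPM became -12.9 CPM without the first control library. This sum holds only for the 4 arms listed. The list left out miR-204-5p (919 CPM on average) and miR-211-5p (2.22 CPM), which had smaller log2 fold changes of -0.133 and -0.145. The sum of 3 astrocyte-associated miRNAs was 93.6, 95.2 and 80.6 CPM in SCI and 166.8, 98.6 and 124.6 CPM in controls, a difference of -40.2 CPM that became -21.8 CPM without the first control library. The astrocyte-associated sum was mostly miR-32-5p (79.1 CPM on average in SCI and 117.2 CPM in controls), and the members differed in direction: miR-193a-3p was lower and miR-449a-5p higher in every SCI library (log2 fold changes -1.04 and 0.57, edgeR adjusted p = 0.256 and 0.279). These 4 sums did not overlap between the groups, whereas those of microglial and myeloid, endothelial and mural, red blood cell and skeletal muscle miRNAs did, the endothelial and mural one only through the first control library. Of the 690 single arms, 11.2% were lower and 9.13% higher in SCI without overlap, and no such share was counted for sums. No marker was absent. The part of cell composition in the miR-132-3p result was not tested.

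The arms whose log2 level followed miR-132-3p most closely over the 6 libraries, among 236 arms above 100 CPM, were miR-411-3p (r = 0.98), miR-1839-5p (0.96), miR-148a-3p (0.94), miR-9-5p (0.92) and miR-708-3p (0.91). All 5 were lower in every SCI library than in every control library, with log2 fold changes of -0.30, -0.29, -0.30, -0.34 and -0.45. They were picked by their likeness to miR-132-3p, whose groups did not overlap, so this separation follows in large part from the choice. Over all 690 arms, 11.2% were separated in this direction. miR-132-5p, from the same hairpin, came 23rd (0.82) and miR-212-3p 107th (0.31). The value for miR-212-3p rests on the first control library, the highest of the 6 for miR-132-3p and the lowest for miR-212-3p: over the other 5 libraries r was 0.99, and the 5 arms named above had 0.89 to 0.99. The arms most like miR-212-3p were miR-1843a-5p (0.97), miR-125b-2-3p (0.97), miR-872-5p (0.91), miR-23b-3p (0.91) and miR-1843b-5p (0.90), all with overlapping groups, and miR-212-5p came 20th (0.75, and 0.51 without the first control library). These values of r describe 6 or 5 libraries that share their scaling, and were given no test.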

How the data were processed

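The authors deposited raw counts: for each library, every distinct read of 17 to 34 nt and its number. The labels' protocols give HD small RNA libraries and single-end sequencing, and the submitters' processing notes name build GRCm38. Adapter trimming and filters are not given in the sources used here, and the counts are of reads, not of molecules. Reads of 18 to 26 nt were matched exactly to GENCODE M21 hairpins and summed per arm; added bases were 1 to 3 unmatched 3′ bases after a matching part of at least 18 nt. Arms, and single reads with a total of at least 10, were tested with edgeR 4.0.16 (TMM, quasi-likelihood, minimum count 10), log2 3p/5p ratios (pseudocount 0.5) with limma 3.58.1, and shares with exact permutation tests. SE is the fold change divided by the root of F. The scripts were tested on simulated data. Libraries of a group differed by far more than sampling noise. The 4 arms and the lists were chosen with earlier results of these data known. Named reads were the 3 most abundant of each arm and any with at least 5% of its reads; other named miRNAs were the 4 list members with the smallest p and the 5 most alike in pattern. Alternatives were other scalings, filters and length windows, DESeq2 1.42.0, limma-voom, a replicate block and leaving out each library.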

Additional observations from a re-analysis of the deposited data

How the results depend on the processing

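miR-132-3p stayed lower in SCI under all 17 alternatives (log2 fold change -0.50 to -0.32, adjusted p 0.060 to 0.712), as did miR-132-5p (-0.35 to -0.12) and miR-212-3p (-0.26 to -0.0049). Scaling by total count moved the median of all arms by 0.115. miR-212-5p ranged from -0.11 to 0.16 with 1 library left out. The count of arms that passed, 0, was 12 with DESeq2, 30 with no filter on low counts and 0 to 7 with 1 library left out. The labels do not say whether replicate numbers pair the libraries. Same-number correlations were 0.232, -0.0658 and -0.0952, within the range for different numbers (-0.196 to 0.281), and with 3 libraries in a group they cannot decide it. With the replicate number as a block, miR-132-3p had -0.45 (adjusted p = 0.256) and 295 single reads passed in place of 148, against 9 to 160 with 1 library left out, 9 being without the third SCI library. End values without overlap, 4 of 12, numbered 2 with reads of 20 to 24 nt and 4 to 8 with 1 library left out; added-base values without overlap, 3 of 12, numbered 6 with exactly 1 added base and 3 to 6 with 1 library left out. With 1 library left out, values near 0 changed sign. These were the log2 fold changes of the miR-132-3p reads 1 base (-0.20 to 0.0755) and 2 bases shorter (-0.18 to 0.19), of the main miR-132-5p read (-0.39 to 0.0021), of miR-212-3p reads of full length (-0.11 to 0.16), 2 shorter (-0.20 to 0.21) and 3 shorter (-0.10 to 0.42), and of the miR-212-5p read 1 shorter (-0.0548 to 0.56). Differences in percentage points did so for miR-132-5p start share (-0.226 to 0.720) and end share (-2.57 to 2.002), miR-212-5p end share (-0.0784 to 1.34), added U on miR-132-3p (-0.128 to 0.681), miR-212-3p (-0.556 to 1.35; -0.10 with exactly 1 added base) and miR-212-5p (-0.0163 to 0.421), and all additions on miR-212-3p (-0.0756 to 2.59) and miR-212-5p (-0.166 to 0.326). Mean length did so for miR-132-5p (-0.0419 to 0.0295 nt) and miR-212-5p (-0.0384 to 0.0058 nt). Without the first control library, an alternative chosen after seeing the data, the SCI minus control difference became positive for the summed microglial and myeloid (28.2 CPM) and skeletal muscle (0.352 CPM) miRNAs, and r became positive for miR-212-5p with miR-132-3p (0.50) and for miR-132-5p with miR-212-3p (0.96). The cause was not tested.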
